A study of Mus musculus with 8 samples.

Results

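Heat shock proteins and J-domain chaperones (DNAJ proteins) were followed in the left ventricle of mice with pressure overload and a changed source of dietary amino acids. The set holds every protein-coding gene named as Hspa, Hspb, Hsp90, Hspd1, Hspe1, Hsph1 or as Dnaj of class a, b or c, with a deposited value of at least 1 in 2 or more libraries. This gave 67 of the 16432 genes tested, from 73 genes with such names. They carry 66 symbols, since Hspa14 is listed under 2 overlapping gene identifiers. By family they are 7 small heat shock proteins, 15 Hsp70 and Hsp110 genes, 3 Hsp90 genes, the 2 subunits of the mitochondrial chaperonin, 4 DNAJA, 11 DNAJB and 25 DNAJC genes. The 6 left out (Dnajb7, Dnajb8, Dnajc22, Dnajc5b, Dnajc5g and Hspb9) reached 1 in at most 1 library.

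Male C57BL/6N mice, 8 weeks old when the experiment began, underwent TAC (transverse aortic constriction, which narrows the aortic arch so that the left ventricle works against a raised pressure) or a sham operation. They were fed SFA-EAA, in which 93.5% of the casein was exchanged for essential amino acids in free form, or the low fat diet SFA with its casein. Polyadenylated RNA of the left ventricle was sequenced 4 weeks after the operation. The groups were TAC SFA-EAA, TAC SFA, sham SFA-EAA and sham SFA, with 2 libraries each, and the labels name no altered gene in any of them. Whether the libraries in a group stem from different animals is not in the labels, and the p-values then measure only the spread between these libraries, which may be technical.

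Chaperones bind unfolded or partly folded proteins. Hsp70 proteins clamp onto a client in a cycle driven by ATP, J-domain proteins deliver clients and trigger the hydrolysis, Hsp110 proteins release the nucleotide, and Hsp90 takes over clients such as kinases and steroid receptors. Small heat shock proteins hold unfolding proteins without ATP and, in heart muscle, sit on Z-discs, desmin and actin filaments, while the endoplasmic reticulum and the mitochondrion have their own Hsp70, Hsp90 and J-domain proteins. Many cytosolic members are induced by heat shock factor 1 through heat shock elements, and the members of the endoplasmic reticulum by the unfolded protein response.

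The deposited values are signals per gene that the authors had normalized with edgeR, and those of a library summed to 5136441 to 6298743. Genes were tested with limma on log2(value + 1), with p-values adjusted by the Benjamini-Hochberg method over all 16432 genes in each of 7 comparisons, and a gene is called at an adjusted p of at most 0.05. Unless another fit is named, calls are those of the main fit, made on all 8 libraries without library weights. Library composition moved with the GC content of transcripts: over 10221 genes, Spearman's rho between a gene's deviation from its mean and its GC content was 0.43 in TAC SFA-EAA replicate 1 and -0.73 in TAC SFA-EAA replicate 2, 0.34 and 0.46 in TAC SFA hearts, -0.62 and -0.43 in sham SFA-EAA hearts, and 0.49 and 0.52 in sham SFA hearts. Values after a correction for GC content therefore stand beside the deposited ones. All 8 cardiomyocyte markers listed were found, with sums of 280000 to 346500 in TAC SFA-EAA, 291600 to 321500 in TAC SFA, 300600 to 317700 in sham SFA-EAA and 354900 to 357300 in sham SFA hearts. The 8 fibroblast markers summed to 10450 and 15050 in TAC SFA hearts, against 4954 and 5753 in sham SFA hearts, and to 5143 and 6637 in TAC SFA-EAA hearts, against 4402 and 5079 in sham SFA-EAA hearts. The 8 macrophage markers summed to 1204 and 1396 in TAC SFA hearts, against 766.2 and 1020 in sham SFA hearts, and to 978.0 and 1143 in TAC SFA-EAA hearts, against 620.3 and 715.9 in sham SFA-EAA hearts, and all 8 had a log2 fold change above 0 in TAC hearts under each diet. The 6 atrial genes listed were Myl7, Myl4, Sln, Nppa, Bmp10 and Dkk3. In each group 1 of the 6 was at 0 in both libraries. They summed to 10440 and 21860 in TAC SFA hearts, against 1133 and 2863 in sham SFA hearts. Under SFA-EAA their sums were 3378 and 4492 in TAC hearts, against 1068 and 1152 in sham hearts. Mitochondrial transcripts took 33.6% to 39.5% of the signal in SFA-EAA libraries, against 22.1% to 30.3% in SFA libraries. Myl7, an atrial myosin light chain, reached 321.9 in TAC SFA replicate 2 and 621.3 in sham SFA replicate 1, and the other 6 libraries lay between 1.28 and 43.0. It did not follow the sum of the atrial list, with 11.8 in TAC SFA replicate 1 and 35.8 in sham SFA replicate 2. Adipocyte markers (5) summed to 3620 and 3811 in sham SFA-EAA hearts, and to 1619 to 2951 in the other groups. Smooth muscle and pericyte markers (7) summed to 5382 and 6110 in sham SFA-EAA hearts, and to 3716 to 4746 in the others. Erythroid markers (5) summed to 1037 and 3724 in TAC SFA-EAA hearts, and to 1547 to 3495 in the others. Endothelial markers (8) summed to 3874 to 4764 in all groups. The part of these differences in the results was not tested, and in such bulk samples fewer cells of a type and less RNA per cell cannot be told apart.

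The small heat shock proteins include Hspb6 and Hspb7, 2 of the 3 chaperone genes called in TAC hearts over both diets. Their summed values were 32810 and 33800 in TAC SFA hearts, against 21480 and 22110 in sham SFA hearts. Under SFA-EAA the sums were 29500 and 22050 in TAC hearts, against 18350 and 17810 in sham hearts. Without Hspb7 and Hspb6, the other 65 genes together summed to 44390 to 48210 in TAC SFA-EAA, 45830 to 46100 in TAC SFA, 45530 to 47170 in sham SFA-EAA and 44140 to 45620 in sham SFA hearts. The groups overlapped under SFA-EAA and were close to each other under SFA.

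Hspb7, a small heat shock protein of heart and skeletal muscle that binds filamin C, had the highest level per length of all 67 genes, 5170 per kilobase over the 8 libraries. It is at chr4:141420779-141425311 of GRCm38, on the plus strand. Its deposited values were 19040 and 20590 in TAC SFA hearts, against 12160 and 12140 in sham SFA hearts. Under SFA-EAA they were 18000 and 12670 in TAC hearts, against 10300 and 9626 in sham hearts. Every TAC library lay above every sham library, the closest pair being TAC SFA-EAA replicate 2 and sham SFA replicate 1.

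Hspb6, also called Hsp20, a target of protein kinase A in heart muscle, is at chr7:30552178-30555443 on the plus strand. Its values were 8349 and 7637 in TAC SFA hearts, against 4819 and 5394 in sham SFA hearts, and 6548 and 5345 in TAC SFA-EAA hearts, against 3920 and 3919 in sham SFA-EAA hearts. TAC and sham did not overlap within either diet, but TAC SFA-EAA replicate 2 lay just under sham SFA replicate 2. Averaged over both diets, 3 of the 67 genes were called, all of them higher in TAC hearts, against 2.11% of all genes called in either direction and 1.38% called higher. They were Hspb6, with a log2 fold change of 0.62 ± 0.10 (SE; limma adjusted p = 0.0167), Hspb7, with 0.65 ± 0.12 (SE; adjusted p = 0.0357), and Hspa1l, described with the Hsp70 genes. After the GC correction Hspb6 had 0.59 (limma adjusted p = 0.000985) and Hspb7 0.57 (adjusted p = 0.00232). Both calls on deposited values were lost when any 1 of the SFA or sham SFA-EAA libraries was left out, with adjusted p-values of 0.0715 to 0.137 for Hspb6 and 0.0976 to 0.214 for Hspb7, and held without either TAC SFA-EAA library. On GC-corrected values both held in all 8 fits without 1 library, at limma adjusted p-values of 0.00221 to 0.0161 and 0.0029 to 0.0305.

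**Figure D1:**
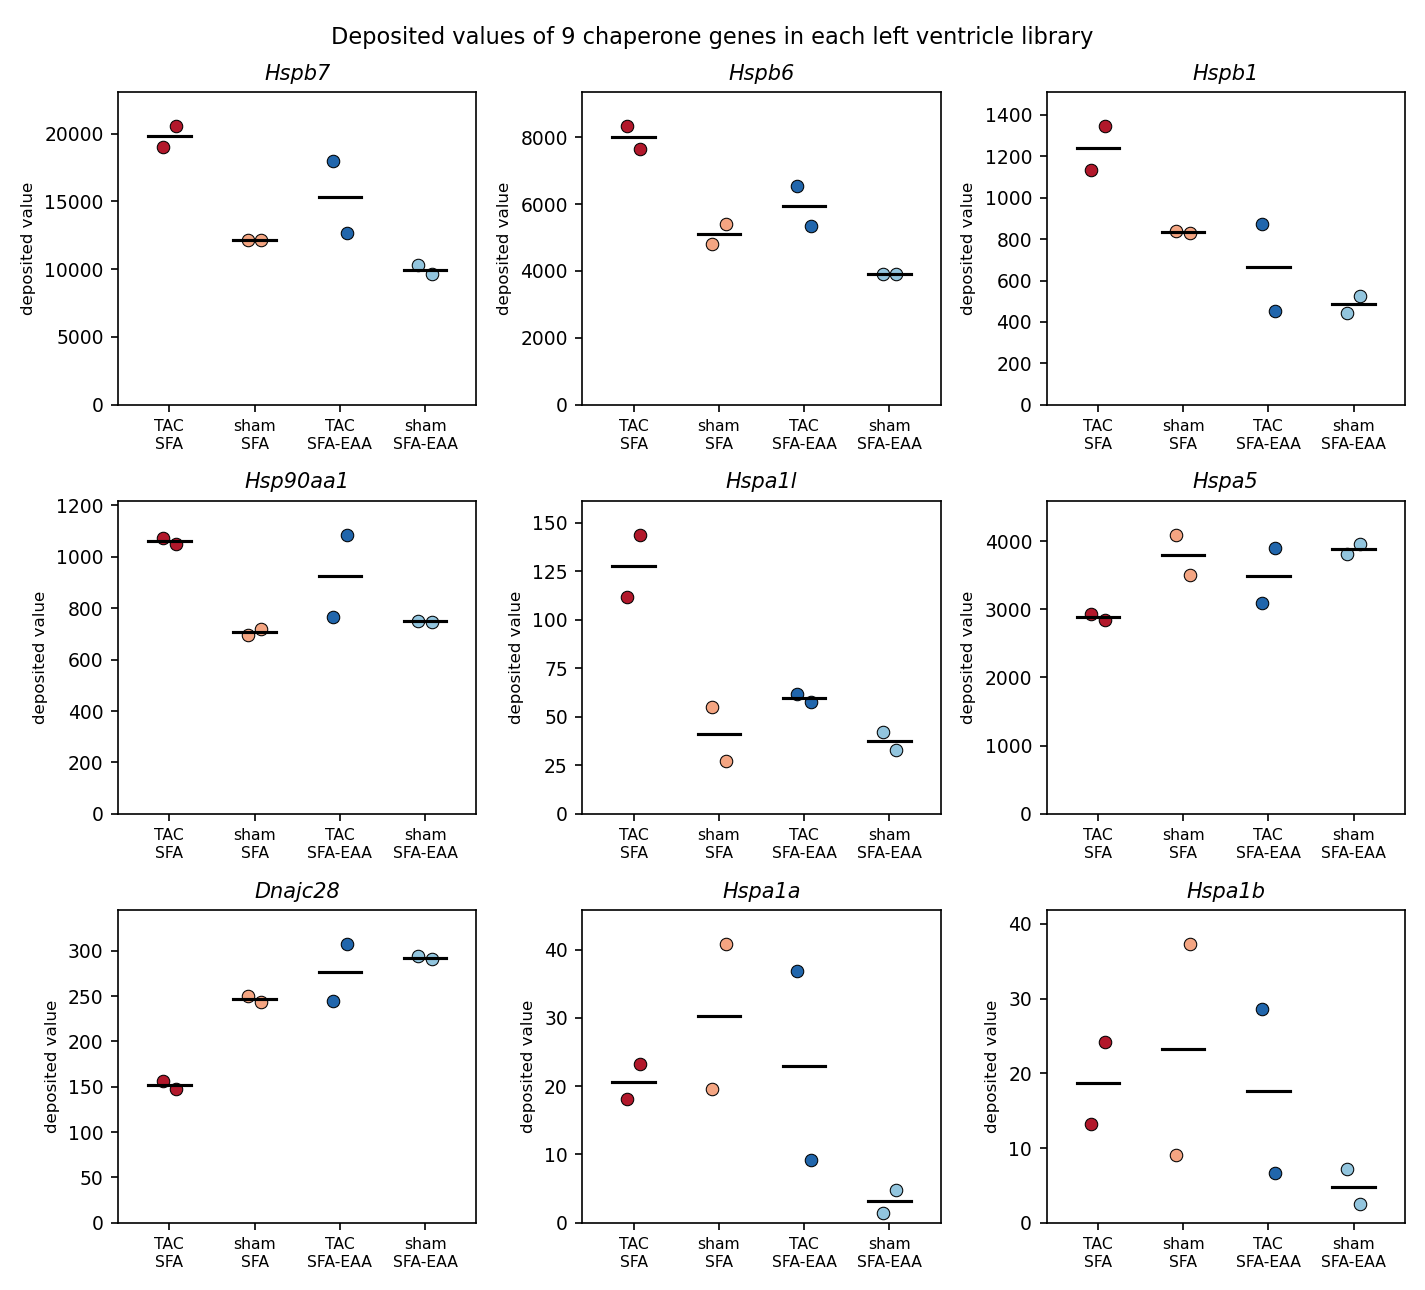
Deposited value (y axis, from 0) of 9 chaperone genes in each of the 8 libraries, by group; points are libraries and bars are group means. Hspb7 and Hspb6 stand higher in TAC than in sham hearts within each diet, Hspa1l reaches 111.9 and 143.9 in TAC SFA hearts, and Hspa1a and Hspa1b scatter within groups.

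Within single diets the same pair led the small heat shock proteins without passing the threshold on deposited values in the main fit. Some other fits on deposited values called each of them under SFA. Over 19 fits their log2 fold changes there were 0.566 to 0.728 for Hspb6 and 0.648 to 0.761 for Hspb7. Under SFA, Hspb6 had a log2 fold change of 0.65 ± 0.14 (SE; limma adjusted p = 0.0629) and Hspb7 of 0.70 ± 0.18 (SE; adjusted p = 0.104). Under SFA-EAA, Hspb6 had 0.59 ± 0.14 (SE; limma adjusted p = 0.305) and Hspb7 0.60 ± 0.18 (SE; adjusted p = 0.424). With the GC correction both were called higher in TAC SFA hearts, at adjusted p = 0.00586 and 0.00875 in limma, and neither under SFA-EAA, at 0.0636 and 0.145. The difference of the TAC effect between the diets was -0.05 ± 0.19 for Hspb6 and -0.10 ± 0.25 for Hspb7 (SE; limma adjusted p = 0.988 and 0.984).

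The RefSeq sequence just upstream of the annotated start is shown for these genes and for Hspb1, because they stand together in TAC hearts under SFA once GC content is corrected. Capitals mark each match to the heat shock element of 2 units, GAANNTTC or TTCNNGAA, which each read the same on both strands. The 250 bases run 5′ to 3′ on the strand of the gene, in GRCm38.p6, and the start is the one RefSeq gives, which for Hspb6 lies inside the gene span of the deposited table.
Hspb7 (chr4:141420529-141420778, plus strand): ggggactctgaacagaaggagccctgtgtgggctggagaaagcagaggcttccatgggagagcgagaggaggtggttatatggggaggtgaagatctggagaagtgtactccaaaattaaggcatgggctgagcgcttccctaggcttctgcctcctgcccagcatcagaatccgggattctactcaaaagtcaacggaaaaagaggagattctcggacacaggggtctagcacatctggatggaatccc
Hspb6 (chr7:30553051-30553300, plus strand): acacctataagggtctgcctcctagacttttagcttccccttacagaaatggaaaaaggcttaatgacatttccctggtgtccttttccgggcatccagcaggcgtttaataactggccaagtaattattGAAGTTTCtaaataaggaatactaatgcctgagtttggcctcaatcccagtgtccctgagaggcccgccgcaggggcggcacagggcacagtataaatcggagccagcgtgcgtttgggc
Hspb1 (chr5:135887669-135887918, plus strand): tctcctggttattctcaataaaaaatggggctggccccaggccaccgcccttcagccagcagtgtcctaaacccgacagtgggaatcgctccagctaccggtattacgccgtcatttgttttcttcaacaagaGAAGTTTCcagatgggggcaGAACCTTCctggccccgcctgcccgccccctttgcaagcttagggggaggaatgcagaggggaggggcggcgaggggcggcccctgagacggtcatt
Hspb6 has 1 match, 120 bases before its start, and Hspb1 has 2, at 117 and 97 bases before it, while the Hspb7 window holds none. In windows from 250 bases before to 50 after the start, 15 of the 54 chaperone genes with a RefSeq entry held such a match, 27.8% against 17.0% of 27025 genes. Longer elements of 3 units, GAANNTTCNNGAA or TTCNNGAANNTTC, were in 4 of the 54 (Hspd1, Hspe1, Dnajb6 and Hsph1) against 0.662% of all genes. Each of these contains 2 overlapping matches to the shorter form. The windows of Hspd1 and Hspe1 overlap, so the same element is counted for both. The shares over all genes are of every gene with a window, not only of the genes tested. No window was matched for Dnajc11, Dnajc12, Dnajc18, Dnajc2, Dnajc30, Dnajc5, Hsp90aa1, Hsp90ab1, Hspa13, Hspa8, Hspa9 and Hspb2.

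Hspb1, known as Hsp25 in the mouse and a partner of actin filaments, had the highest transcript GC content of the 67 genes, 61.7%. It had 1135 and 1349 in TAC SFA hearts, against 839.6 and 828.2 in sham SFA hearts, and 874.1 and 453.0 in TAC SFA-EAA hearts, against 444.7 and 526.6 in sham SFA-EAA hearts. Under SFA the groups were apart, at 0.57 ± 0.26 (log2 fold change, SE; limma adjusted p = 0.386 as deposited, 0.59 and 0.00679 after the GC correction). Under SFA-EAA TAC replicate 2 lay between the sham libraries.

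Hspb8, which works with Bag3 in the disposal of damaged filamin, had 3922 and 3810 in TAC SFA hearts, against 3258 and 3304 in sham SFA hearts, and 3682 and 3377 in TAC SFA-EAA hearts, against 3371 and 3449 in sham SFA-EAA hearts. The groups did not overlap under SFA and overlapped under SFA-EAA, and no call was made (0.24 ± 0.11 under SFA, log2 fold change, SE; limma adjusted p = 0.384). Hspb2, a muscle small heat shock protein, had 287.4 and 350.1 in TAC SFA hearts, against 342.3 and 369.7 in sham SFA hearts, and 325.0 and 140.5 in TAC SFA-EAA hearts, against 236.0 and 211.5 in sham SFA-EAA hearts. Its gene overlaps that of Cryab, the αB-crystallin gene on the opposite strand, over 1030 bases. Cryab averaged 9298, and whether the counting used strand is not given in the sources used here. If it did not, reads of the 2 genes cannot be told apart where they overlap. Hspb3, its muscle partner, had 57.8 and 54.5 in TAC SFA hearts, against 43.7 and 50.5 in sham SFA hearts, and 46.2 and 47.0 in TAC SFA-EAA hearts, against 51.9 and 55.1 in sham SFA-EAA hearts. Thus its TAC hearts were the higher ones under SFA and the lower ones under SFA-EAA, with a difference of -0.45 ± 0.29 between the log2 effects (SE; limma adjusted p = 0.909). Hspb11, which carries the family name but is also the intraflagellar transport subunit Ift25, ranged from 15.3 to 29.8.

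Among genes listed as other small heat shock proteins and their partners, Cryab had 10960 and 9979 in TAC SFA hearts, against 9639 and 9322 in sham SFA hearts, with a log2 fold change of 0.14 (limma adjusted p = 0.815). Flnc, the filamin that Hspb7 and Bag3 complexes handle, was called higher in TAC hearts over both diets, at 0.77 (log2 fold change; limma adjusted p = 0.0291), and lower under SFA-EAA over both operations, at -0.80 (adjusted p = 0.0472; -0.29 and 0.0718 after the GC correction). On deposited values the TAC call held only without either TAC SFA-EAA library, with limma adjusted p-values of 0.0257 to 0.18 over the 8 fits without 1 library, and the diet call only without TAC SFA-EAA replicate 1. The TAC effect on GC-corrected values was 0.67 (limma adjusted p = 0.000538) and the call held in all 8 such fits, at 0.000465 to 0.00879. No other of the 6 listed genes that were tested was called in either of these comparisons on deposited values. Desmin (Des) had 13110 and 16080 in TAC SFA hearts, against 8995 and 9007 in sham SFA hearts, and was called there only with the GC correction (0.66, limma adjusted p = 0.00662).

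**Figure D2:**
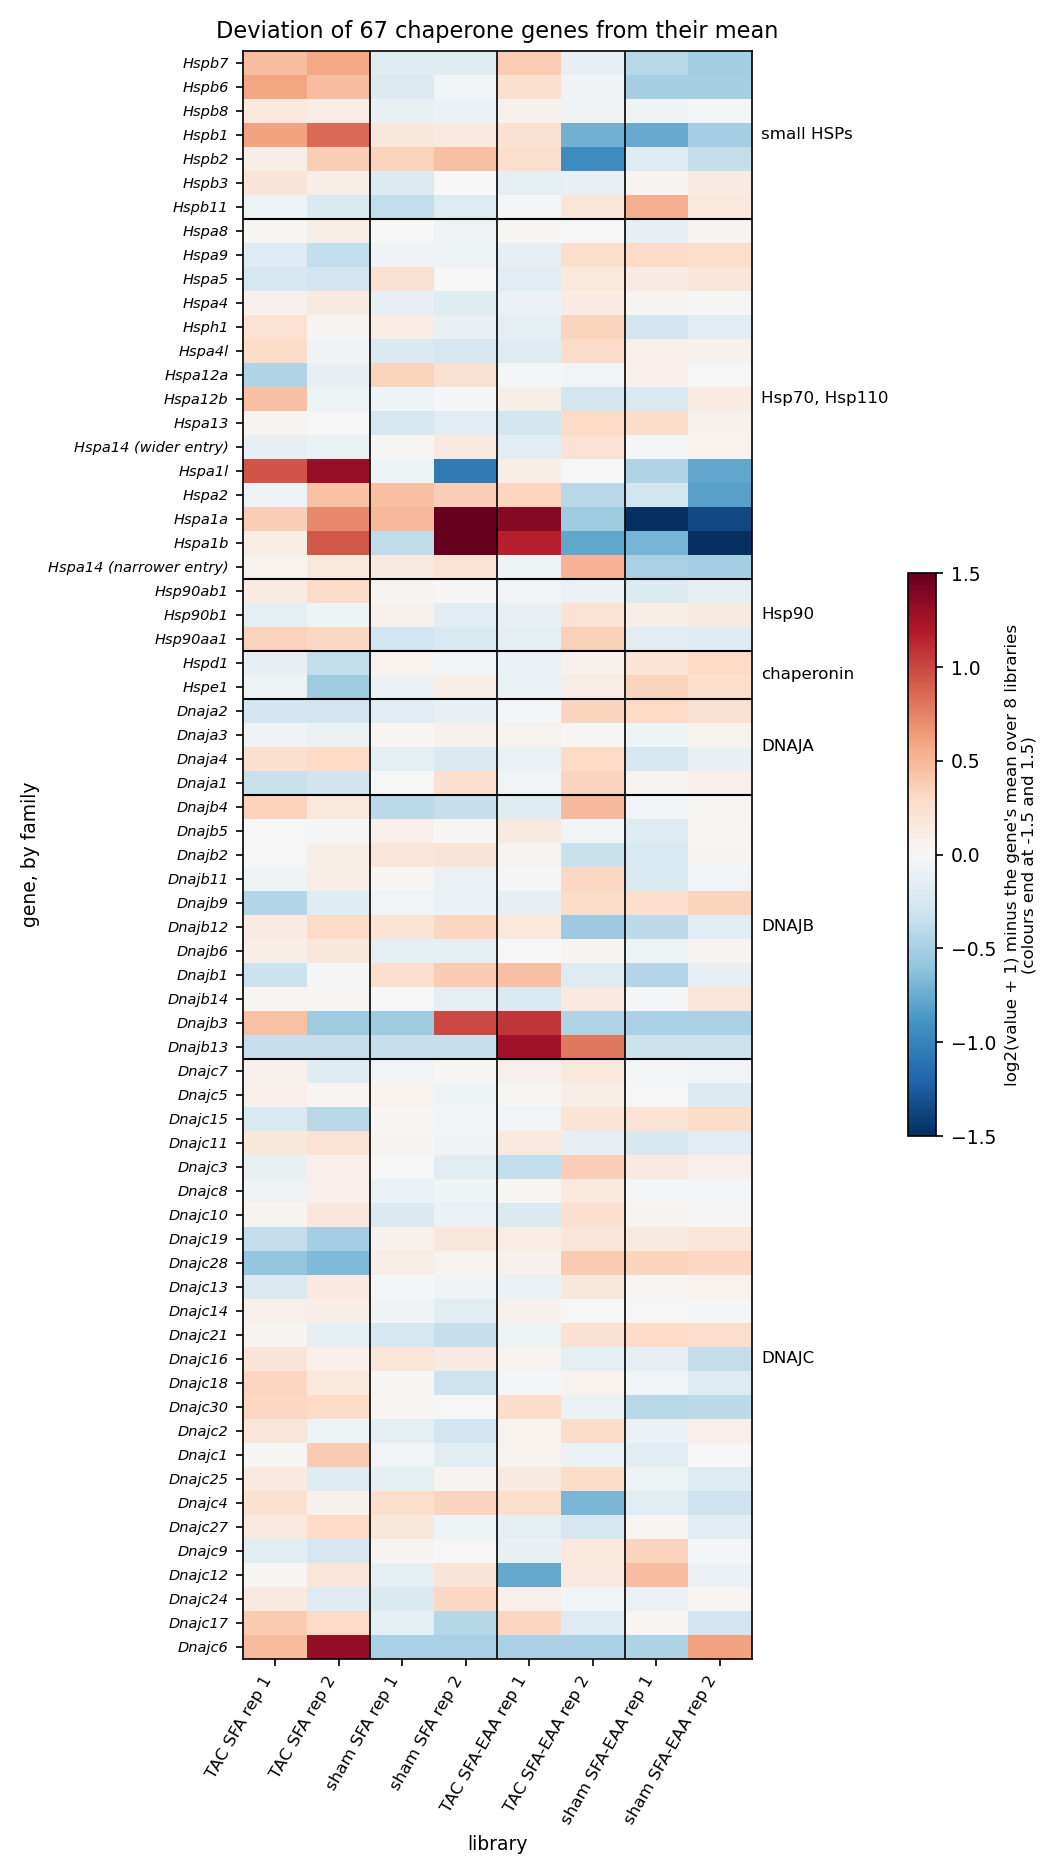
Deviation of log2(value + 1) from each gene's mean over the 8 libraries, for the 67 chaperone genes (rows, by family and then by mean value) in each library (columns). Red is above and blue below the gene's mean; Hspb7, Hspb6, Hspb1 and Hspa1l are red in both TAC SFA libraries, and Hspa1a and Hspa1b hold the darkest cells.

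Of the 15 Hsp70 and Hsp110 genes, 1 was called in TAC hearts, and 7 of the 15 had a log2 fold change above 0 under SFA. Hspa1l, a constitutive cytosolic Hsp70 best known from testis, is at chr17:34972703-34979285 on the plus strand. It had 111.9 and 143.9 in TAC SFA hearts, against 55.2 and 27.1 in sham SFA hearts, and 61.6 and 57.7 in TAC SFA-EAA hearts, against 41.9 and 33.1 in sham SFA-EAA hearts. All 4 TAC libraries were above all 4 sham libraries, and the TAC SFA libraries stood highest. Under SFA it was the 1 gene of the 67 called, against 1.25% of all genes called in either direction and 0.834% called higher, with a log2 fold change of 1.69 ± 0.32 (SE; limma adjusted p = 0.0478). Over both diets the change was 1.18 ± 0.23 (SE; limma adjusted p = 0.0377). With the GC correction these were 1.65 (limma adjusted p = 0.0082) and 1.13 (adjusted p = 0.00795). The call under SFA on deposited values was lost without any 1 of the 8 libraries, at limma adjusted p-values of 0.0623 to 0.387, and the call over both diets held only without sham SFA replicate 1. On GC-corrected values the call under SFA was lost only without replicate 2 of either SFA group (limma adjusted p = 0.0062 to 0.0949 over the 8 fits), and that over both diets only without sham SFA-EAA replicate 2 (0.00402 to 0.053). An antisense gene, Gm10501, overlaps Hspa1l over 2387 bases and averaged 4.86.

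Under SFA, 27 of the 67 genes had both TAC libraries above both sham libraries, 40.3% against 24.3% of all genes, and 17 had both below, 25.4% against 23.1%. Unadjusted p-values under 0.05 were found for 14 of the 67 and for 2197 of the 16432 genes. The median log2 fold change of the 67 was 0.06 under SFA, against 0.01 over all genes, and 0.05 under SFA-EAA, against 0.00. Under SFA-EAA none of the 67 was called by limma, against 0.0122% of all genes, and 5 had an unadjusted p under 0.05, against 1408 of all genes. There 19 had both TAC libraries above both sham libraries, 28.4% against 18.5% of all genes, and 8 had both below, 11.9% against 18.0%. After the GC correction 25 had both above and 18 both below under SFA, 37.3% against 23.6% and 26.9% against 24.8%. Under SFA-EAA 23 and 11 did so, 34.3% against 19.6% and 16.4% against 20.6%. Genes near 0 enter these counts. Dnajc6 is in the 27 and the 25 under SFA and in the 8 under SFA-EAA. Dnajb13 and Dnajb3 are in the 19 and the 23, and the lower TAC SFA-EAA library of Dnajb3 held 0.057, against 0.035 in sham. With the GC correction 10 of the 67 were called under SFA, against 5.0% of all genes, and 0 under SFA-EAA, against 0.207%, with 8 at an unadjusted p under 0.05, against 1869 of all genes. The 6 called higher under SFA after the correction were Hspb6, Hspb7, Hspb1, Hsp90aa1, Hspa1l and Dnajb4, against 2.4% of all genes, and the 4 called lower were Dnajc28, Dnajc19, Hspa12a and Hspa5, against 2.6%. The count of 10 was 1 without TAC SFA replicate 2 or without either sham SFA library, 1.49% against 0.974% to 1.39% of all genes. Over both diets the correction gave 11 calls, against 6.2% of all genes. They were 8 higher (Hspb6, Hspb7, Hspb1, Hsp90aa1, Hspa1l, Dnajb4, Dnaja4 and Dnajc30, against 3.02%) and 3 lower (Dnajc28, Hspd1 and Hspa5, against 3.17%). The 11 were 4 without either sham SFA-EAA library, 5 without either sham SFA library and 6 without TAC SFA replicate 2, or 5.97% to 8.96% against 2.11% to 3.23% of all genes.

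Hspa1a and Hspa1b, the heat-inducible cytosolic Hsp70 genes, were low, and none of their differences was called in the main fit or with the GC correction. Hspa1a had 18.1 and 23.2 in TAC SFA hearts, against 19.6 and 40.9 in sham SFA hearts, and 36.8 and 9.17 in TAC SFA-EAA hearts, against 1.48 and 4.76 in sham SFA-EAA hearts. Hspa1b had 13.2 and 24.2 in TAC SFA hearts, against 9.10 and 37.4 in sham SFA hearts, and 28.6 and 6.69 in TAC SFA-EAA hearts, against 7.14 and 2.57 in sham SFA-EAA hearts. In both genes the 2 libraries of TAC SFA-EAA hearts, and likewise those of sham SFA hearts, lay far apart, and the sham SFA-EAA libraries held the lowest Hspa1a values. The largest difference in Hspa1a, sham SFA-EAA against sham SFA, was -2.96 ± 0.67 (log2 fold change, SE; limma adjusted p = 0.267), and that of TAC against sham under SFA-EAA was 2.38 ± 0.67 (SE; adjusted p = 0.402). Over 19 fits the diet difference in sham hearts ran from -3.57 to -2.35, and some fits on deposited values other than the main one called it. Their coding sequences are 99.4% identical in the reference, so reads can pass between the 2 genes, and Hspa1l is 82.7% identical to Hspa1a.

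The upstream sequences of these neighbouring genes show the same contrast: Hspa1a and Hspa1b are near copies, and Hspa1l is not. Capitals again mark matches to the 2-unit heat shock element.
Hspa1l (chr17:34972453-34972702, plus strand): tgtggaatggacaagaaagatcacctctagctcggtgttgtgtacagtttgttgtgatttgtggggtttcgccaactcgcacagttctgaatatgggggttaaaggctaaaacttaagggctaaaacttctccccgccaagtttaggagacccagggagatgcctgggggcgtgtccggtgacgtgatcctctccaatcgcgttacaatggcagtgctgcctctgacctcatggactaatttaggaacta
Hspa1a (chr17:34972157-34972406, minus strand): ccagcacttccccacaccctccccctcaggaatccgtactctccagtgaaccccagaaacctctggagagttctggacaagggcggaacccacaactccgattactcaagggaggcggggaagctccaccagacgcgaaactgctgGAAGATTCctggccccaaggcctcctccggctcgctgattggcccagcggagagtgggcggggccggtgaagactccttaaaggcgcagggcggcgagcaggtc
Hspa1b (chr17:34959239-34959488, minus strand): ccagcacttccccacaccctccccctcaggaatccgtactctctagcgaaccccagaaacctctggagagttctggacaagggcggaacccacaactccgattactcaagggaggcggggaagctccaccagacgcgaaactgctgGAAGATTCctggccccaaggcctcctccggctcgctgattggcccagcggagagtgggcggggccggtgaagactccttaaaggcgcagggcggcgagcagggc
Over 250 bases the Hspa1a and Hspa1b windows differ at 3, and each holds 1 match, 104 bases before the start. No match to these letters is in the Hspa1l window.

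Hspa8, the constitutive Hsc70, lay between 6597 and 7635 in every library, at 7295 and 7635 in TAC SFA hearts, against 7221 and 6917 in sham SFA hearts, and 7273 and 7244 in TAC SFA-EAA hearts, against 6597 and 7421 in sham SFA-EAA hearts. Its TAC log2 fold change was 0.08 ± 0.12 under SFA and 0.05 ± 0.12 under SFA-EAA (SE; limma adjusted p = 0.854 and 0.949). Hspa2, a testis-enriched Hsp70, had 20.8 and 30.0 in TAC SFA hearts, against 30.2 and 28.4 in sham SFA hearts, and 27.7 and 16.1 in TAC SFA-EAA hearts, against 18.0 and 12.0 in sham SFA-EAA hearts, with overlap in both diets. Hspa12a, a distant relative of Hsp70, had 111.9 and 140.6 in TAC SFA hearts, against 193.9 and 179.8 in sham SFA hearts, and 149.8 and 149.7 in TAC SFA-EAA hearts, against 162.4 and 153.7 in sham SFA-EAA hearts. On deposited values it was the 1 gene of the 67 with all TAC libraries below all sham libraries, 1.49% against 2.75% of all genes, and with the GC correction Hspa12a, Hspa5, Hspd1, Dnajb9 and Dnajc15 were, 7.46% against 4.07%. Under SFA the Hspa12a log2 fold change was -0.57 ± 0.16 (SE; limma adjusted p = 0.136, and 0.0294 after the GC correction). The genes with all TAC libraries above all sham libraries on deposited values were Hspb7, Hspa1l, Hsp90aa1 and Dnaja4, 5.97% against 3.73%. After correction for GC content they were Hspb1, Hspb6, Hspb7, Hspa1l, Hsp90aa1, Dnajb4, Dnajc2, Dnajc11 and Dnajc30, 13.4% against 4.66%.

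The Hsp110 genes, whose products release nucleotide from Hsp70, gave no call in any of the 7 comparisons. Hspa4 had 1035 and 1081 in TAC SFA hearts, against 908.5 and 871.3 in sham SFA hearts, and 930.7 and 1070 in TAC SFA-EAA hearts, against 1013 and 1000 in sham SFA-EAA hearts. Hspa4l had 406.2 and 323.4 in TAC SFA hearts, against 288.2 and 281.6 in sham SFA hearts, and 292.5 and 409.0 in TAC SFA-EAA hearts, against 354.4 and 349.0 in sham SFA-EAA hearts. For both, TAC lay above sham under SFA and spanned it under SFA-EAA. Hsph1, the heat-inducible member, had 420.4 and 372.2 in TAC SFA hearts, against 391.4 and 336.8 in sham SFA hearts, and 328.4 and 457.3 in TAC SFA-EAA hearts, against 296.3 and 324.8 in sham SFA-EAA hearts. Hsph1 overlapped between TAC and sham under SFA and was apart under SFA-EAA.

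Both cytosolic Hsp90 genes had values above sham in TAC hearts, and neither was called on deposited values in the main fit. For Hsp90aa1 the log2 fold change under SFA ran from 0.557 to 0.612 over 19 fits. Some of the other fits on deposited values called it, under SFA and over both diets. Hsp90aa1, the stress-inducible form, had 1074 and 1049 in TAC SFA hearts, against 694.4 and 721.1 in sham SFA hearts, and 765.6 and 1087 in TAC SFA-EAA hearts, against 750.9 and 747.0 in sham SFA-EAA hearts. No TAC library overlapped a sham library, though TAC SFA-EAA replicate 1 lay close to the sham values. Its log2 fold change was 0.58 ± 0.16 under SFA and 0.43 ± 0.11 over both diets (SE; limma adjusted p = 0.122 and 0.0896), and it was called with the GC correction in both (0.58, adjusted p = 0.00732, and 0.46, adjusted p = 0.00312). Hsp90ab1, the constitutive form, stood at 2279 per kilobase against 219.1 for Hsp90aa1. It had 7431 and 8267 in TAC SFA hearts, against 6984 and 6875 in sham SFA hearts, and 6630 and 6385 in TAC SFA-EAA hearts, against 5914 and 6186 in sham SFA-EAA hearts. TAC lay above sham within each diet, by 0.18 ± 0.12 and 0.11 ± 0.12 (log2 fold change, SE; limma adjusted p = 0.599 and 0.867), and every SFA-EAA library lay below every SFA library. The coding sequences of the pair are 75.3% identical.

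No heat shock or J-domain protein of the endoplasmic reticulum described here was called higher in TAC hearts. Hspa5, the Hsp70 of this compartment also called BiP, had 2930 and 2846 in TAC SFA hearts, against 4096 and 3504 in sham SFA hearts, and 3092 and 3894 in TAC SFA-EAA hearts, against 3806 and 3955 in sham SFA-EAA hearts. The TAC SFA pair was the lowest of the 4 groups, at -0.39 ± 0.14 against sham (log2 fold change, SE; limma adjusted p = 0.255), and was called lower with the GC correction (-0.40, adjusted p = 0.0421). Hsp90b1, the Hsp90 of the same compartment, had 1753 and 1848 in TAC SFA hearts, against 2040 and 1730 in sham SFA hearts, and 1803 and 2256 in TAC SFA-EAA hearts, against 2068 and 2130 in sham SFA-EAA hearts. Of its J-domain proteins, Dnajb9 had 156.5 and 186.6 in TAC SFA hearts, against 206.6 and 199.1 in sham SFA hearts, and 195.0 and 257.5 in TAC SFA-EAA hearts, against 253.8 and 267.2 in sham SFA-EAA hearts. Dnajb9 binds BiP and the sensor Ire1. Dnajb11 had 244.7 and 273.3 in TAC SFA hearts, against 260.9 and 238.5 in sham SFA hearts, and 251.4 and 316.4 in TAC SFA-EAA hearts, against 218.3 and 248.7 in sham SFA-EAA hearts. Dnajc3 had 269.4 and 308.8 in TAC SFA hearts, against 291.8 and 260.4 in sham SFA hearts, and 225.8 and 377.3 in TAC SFA-EAA hearts, against 321.4 and 307.5 in sham SFA-EAA hearts. Dnajc3 overlapped between TAC and sham in both diets, and neither it, Dnajb9 nor Dnajb11 was called in any comparison.

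The Hspa5 window is shown because it holds the endoplasmic reticulum stress element, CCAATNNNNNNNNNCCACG on either strand, in capitals. The window ends at the RefSeq start, which lies inside the deposited gene span that begins at chr2:34771970. The element, 65 bases before that start, lies inside the span too.
Hspa5 (chr2:34771840-34772089, plus strand): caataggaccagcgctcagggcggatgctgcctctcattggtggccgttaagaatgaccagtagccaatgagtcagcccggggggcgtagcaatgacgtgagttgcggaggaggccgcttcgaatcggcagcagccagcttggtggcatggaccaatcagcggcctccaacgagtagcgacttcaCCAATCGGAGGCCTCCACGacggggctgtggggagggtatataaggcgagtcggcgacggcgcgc
This element was in the windows of Hspa5, Hsp90b1 and Dnajc3, 3 of the 54 chaperone genes matched, against 0.137% of all genes. None of these 3 genes was called on deposited values, and over both diets their TAC log2 fold changes were -0.28, -0.06 and -0.02, with limma adjusted p-values of 0.216, 0.842 and 0.974. In the list of 24 other genes of this compartment and its stress response, Herpud1, a ubiquitin-like protein of protein disposal, was called lower in TAC hearts over both diets (-0.45, limma adjusted p = 0.0299; 0.0345 to 0.189 without 1 library, and held only without either TAC SFA-EAA library), and 14 of the 24 had a log2 fold change above 0. The GC-corrected Herpud1 value was -0.50 (limma adjusted p = 0.0029) and the call held in all 8 fits without 1 library, at 0.00196 to 0.0295. That correction also called 2 of the 24 higher over both diets, Txndc5, a protein disulfide isomerase (0.32, limma adjusted p = 0.0373), and Atf6, a sensor of the unfolded protein response (0.27, adjusted p = 0.0437), and Txndc5 under SFA (0.47, adjusted p = 0.0377). Ddit3, the stress factor CHOP, had 79.6 and 115.9 in TAC SFA hearts, against 60.9 and 50.2 in sham SFA hearts (0.79, limma adjusted p = 0.158).

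The mitochondrial Hsp60, Hsp10 and Hsp70 genes had negative TAC log2 fold changes under both diets, with no call on deposited values. Hspd1 and Hspe1 encode Hsp60 and Hsp10, the barrel and lid of the chaperonin. Hspd1 had 1907 and 1618 in TAC SFA hearts, against 2165 and 2025 in sham SFA hearts, and 1955 and 2171 in TAC SFA-EAA hearts, against 2403 and 2562 in sham SFA-EAA hearts. Hspe1 had 410.0 and 298.1 in TAC SFA hearts, against 405.0 and 461.4 in sham SFA hearts, and 403.3 and 463.4 in TAC SFA-EAA hearts, against 545.3 and 519.8 in sham SFA-EAA hearts. In Hspd1 the TAC libraries lay below the sham libraries in both diets, and in Hspe1 they did so under SFA-EAA and overlapped under SFA. Over both diets the log2 fold changes were -0.26 ± 0.09 for Hspd1 and -0.30 ± 0.12 for Hspe1 (SE; limma adjusted p = 0.185 and 0.259), and Hspd1 was called with the GC correction (-0.28, adjusted p = 0.0432). The pair lies head to head, with gene spans that overlap by 112 bases, and shares the sequence shown. Capitals mark a heat shock element made of 2 overlapping 3-unit matches. The RefSeq start of Hspe1 lies just inside its deposited gene span, which begins at chr1:55088132.
Hspe1 (chr1:55087898-55088147, plus strand): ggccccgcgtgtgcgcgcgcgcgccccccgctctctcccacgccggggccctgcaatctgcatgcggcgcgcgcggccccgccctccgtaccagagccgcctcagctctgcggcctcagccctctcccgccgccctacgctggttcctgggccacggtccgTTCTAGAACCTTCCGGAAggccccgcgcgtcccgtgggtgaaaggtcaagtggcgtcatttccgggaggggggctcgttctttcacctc
Hspa9, the mitochondrial Hsp70, had 4547 and 4015 in TAC SFA hearts, against 5006 and 4912 in sham SFA hearts, and 4761 and 6208 in TAC SFA-EAA hearts, against 6377 and 6223 in sham SFA-EAA hearts. Its TAC libraries were below the sham ones in each diet, by log2 differences of -0.21 ± 0.15 in both (SE; limma adjusted p = 0.611 under SFA and 0.755 under SFA-EAA).

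The J-domain genes Dnajc28 and Dnajc19 had their lowest values in TAC SFA hearts. Dnajc28, on chr16:91614257-91619026 and the minus strand, had 156.5 and 147.4 in TAC SFA hearts, against 250.4 and 244.0 in sham SFA hearts, and 244.2 and 308.0 in TAC SFA-EAA hearts, against 294.4 and 290.5 in sham SFA-EAA hearts. The TAC SFA pair stood below all other libraries. Against sham SFA its log2 fold change was -0.70 ± 0.14 (SE; limma adjusted p = 0.0593), and with the GC correction it was called lower, at -0.71 (adjusted p = 0.00548). Against TAC SFA, TAC SFA-EAA hearts had 0.85 ± 0.14 (SE; limma adjusted p = 0.0703; 0.76 and 0.00898 after the GC correction). These 2 comparisons share the TAC SFA libraries. The difference of the TAC effect between the diets was 0.61 ± 0.20 (SE; limma adjusted p = 0.862).

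Dnajc19, a subunit of the mitochondrial protein import motor whose loss causes a dilated cardiomyopathy in people, had 188.8 and 169.4 in TAC SFA hearts, against 251.9 and 272.4 in sham SFA hearts, and 261.6 and 274.6 in TAC SFA-EAA hearts, against 264.9 and 274.5 in sham SFA-EAA hearts. The TAC SFA libraries again were the lowest, at -0.55 ± 0.13 (log2 fold change, SE; limma adjusted p = 0.0852), and were called with the GC correction (adjusted p = 0.0352). Its gene overlaps Fxr1 on the other strand over 14303 bases, and the part of Fxr1 reads in it was not tested. Dnajc15, a relative of Dnajc19 in the inner membrane, had 297.9 and 261.6 in TAC SFA hearts, against 357.9 and 341.1 in sham SFA hearts, and 340.7 and 401.9 in TAC SFA-EAA hearts, against 404.7 and 424.7 in sham SFA-EAA hearts. Its TAC libraries lay below the sham libraries in each diet. Dnaja3, the J-domain partner of Hspa9, had 829.2 and 800.9 in TAC SFA hearts, against 875.8 and 897.1 in sham SFA hearts, and 895.7 and 869.6 in TAC SFA-EAA hearts, against 825.4 and 893.2 in sham SFA-EAA hearts. Dnajc30 had 186.9 and 184.7 in TAC SFA hearts, against 153.0 and 150.4 in sham SFA hearts, and 182.5 and 140.7 in TAC SFA-EAA hearts, against 112.0 and 113.8 in sham SFA-EAA hearts. Its TAC libraries lay above the sham libraries in each diet, by 0.40 ± 0.11 over both (log2 fold change, SE; limma adjusted p = 0.128, and 0.0315 with the GC correction); its span overlaps Wbscr22 over 758 bases. Of 13 listed mitochondrial chaperones and proteases outside the name rule, limma called none in TAC hearts on deposited values, with 2 at an unadjusted p under 0.05 and a median log2 fold change of -0.08 over both diets.

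Cytosolic J-domain proteins, the partners of Hspa8 and Hspa1a, held no call in TAC hearts on deposited values in the main fit. That fit took all 8 libraries without library weights. Dnaja4 had 849.1 and 885.5 in TAC SFA hearts, against 649.5 and 618.1 in sham SFA hearts, and 673.2 and 884.9 in TAC SFA-EAA hearts, against 604.3 and 669.5 in sham SFA-EAA hearts. Dnajb4 had 939.4 and 823.6 in TAC SFA hearts, against 557.4 and 581.5 in sham SFA hearts, and 651.7 and 1034 in TAC SFA-EAA hearts, against 717.1 and 746.8 in sham SFA-EAA hearts. In both genes every TAC SFA library lay above all sham libraries, and under SFA-EAA Dnajb4 straddled the sham values. Over both diets Dnaja4 had 0.37 ± 0.10 and Dnajb4 0.40 ± 0.14 (log2 fold change, SE; limma adjusted p = 0.117 and 0.196), and both were called with the GC correction (adjusted p = 0.0377 and 0.0102) and on deposited values without TAC SFA-EAA replicate 1 (adjusted p = 0.0247 and 0.0208). Under SFA, Dnajb4 was also called on deposited values with library weights, with only the 4 libraries compared and without either TAC SFA-EAA library, at limma adjusted p-values of 0.0112 to 0.031.

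Dnajb1, the heat-inducible Hsp40, had 84.4 and 104.5 in TAC SFA hearts, against 126.6 and 138.7 in sham SFA hearts, and 145.6 and 92.1 in TAC SFA-EAA hearts, against 77.6 and 97.4 in sham SFA-EAA hearts. Dnaja1 had 256.1 and 262.0 in TAC SFA hearts, against 320.2 and 381.1 in sham SFA hearts, and 313.1 and 405.8 in TAC SFA-EAA hearts, against 332.6 and 339.2 in sham SFA-EAA hearts. In Dnajb1 and Dnaja1 TAC lay under sham with SFA and overlapped it with SFA-EAA on deposited values. After the GC correction TAC lay under sham with SFA and above it with SFA-EAA in both genes, without overlap. On deposited values the log2 effect of TAC differed between the diets by 0.90 ± 0.34 for Dnajb1 and 0.52 ± 0.22 for Dnaja1 (SE; limma adjusted p = 0.878 for each). Dnajb5, a cytosolic relative of Dnajb4, had 483.9 and 473.1 in TAC SFA hearts, against 508.5 and 491.6 in sham SFA hearts, and 533.5 and 469.6 in TAC SFA-EAA hearts, against 424.9 and 495.6 in sham SFA-EAA hearts. Dnajb6, which keeps aggregation-prone proteins soluble and sits at the Z-disc, had 148.0 and 154.9 in TAC SFA hearts, against 124.7 and 124.7 in sham SFA hearts, and 138.6 and 142.0 in TAC SFA-EAA hearts, against 131.1 and 141.6 in sham SFA-EAA hearts. Neither was called in any comparison.

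**Figure D3:**
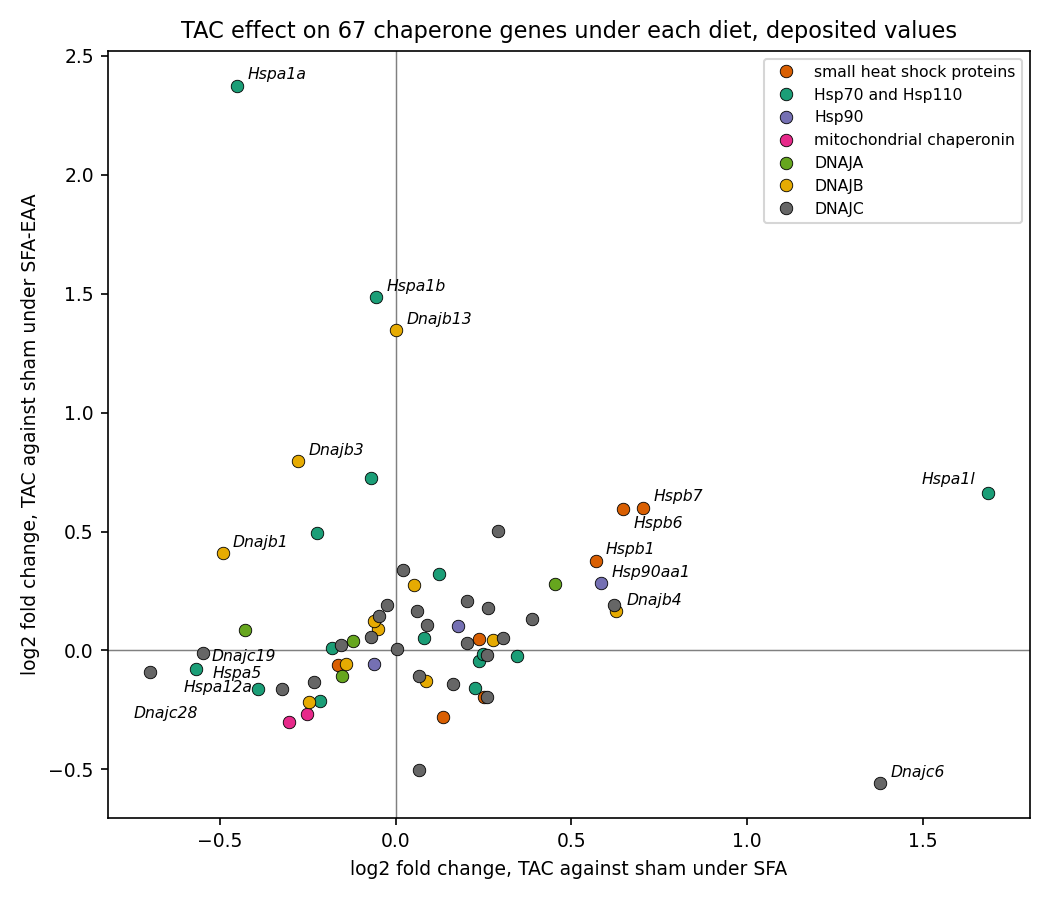
Log2 fold change of TAC against sham under SFA (x axis) and under SFA-EAA (y axis) for the 67 chaperone genes on deposited values, coloured by family; no library is shared between the axes. Hspb7, Hspb6, Hspb1 and Hsp90aa1 lie to the upper right, Hspa1l is farthest right at 1.69, and Hspa1a is at the top at 2.38.

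The TAC effects under the 2 diets rest on separate libraries. They were above 0 under both for 24 of the 67 genes and below 0 under both for 14, so 56.7% had the same sign, against 59.2% of all genes. The test of the difference itself called none of the 67, against 0.0% of all genes, by limma, and 6 of the 67 had an unadjusted p under 0.05, against 902 of the 16432. With the GC correction it called none either, against 0.0% of all genes, with 10 of the 67 at an unadjusted p under 0.05, against 1324 of all genes. Under SFA-EAA the 5 genes with the smallest p were Hspb6, Hspa1a, Hspb7, Dnajc30 and Dnajb13. Dnajb13, a protein of sperm flagella, was at 2.04 and 1.20 in TAC SFA-EAA hearts, against 0.017 and 0.015 in sham SFA-EAA hearts, and is listed at 0 in the 4 SFA libraries, so it passed the filter only through the TAC SFA-EAA libraries.

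In sham hearts, Spearman's rho between the log2 fold change of the 67 genes for SFA-EAA against SFA and their GC content was -0.76, and in TAC hearts -0.53. After the correction the values were -0.01 and 0.12. The points share libraries and are given as a description. In sham hearts none of the 67 was called by limma, against 0.0% of all genes, and 12 had an unadjusted p under 0.05, against 2437 of all genes. In TAC hearts none was called, against 0.0487%, and 14 had an unadjusted p under 0.05, against 2476. With the GC correction the counts were 0 in sham hearts, against 0.0304% of all genes and with 7 at an unadjusted p under 0.05, against 1739 of all genes, and 1 in TAC hearts, Dnajc28, against 1.86% called in either direction and 1.11% called higher. In sham hearts 26 genes had both SFA-EAA libraries above both SFA libraries, 38.8% against 27.6% of all genes, and 18 had both below, 26.9% against 27.6%. The GC-corrected counts were 19, 28.4% against 25.2% of all genes, and 18, 26.9% against 21.3%. In TAC hearts 15 had both above, 22.4% against 21.7% of all genes, and 16 both below, 23.9% against 21.1%. After correction they were 17, 25.4% against 22.9%, and 18, 26.9% against 19.8%. Genes near 0 enter these counts. Dnajb13 is among the higher genes in sham and TAC hearts, deposited and corrected, with 0.017 and 0.015 in sham SFA-EAA hearts, against 0 in sham SFA hearts. Dnajc6, with 0.017 and 1.13 against 0, is among the 26, and it is among the lower genes in TAC hearts, deposited and corrected.

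Over both operations 1 of the 67 genes was called for diet, against 1.21% of all genes called in either direction and 0.487% called higher. This was Dnajc28, higher under SFA-EAA by 0.55 ± 0.10 (log2 fold change and SE, limma adjusted p = 0.0494). With the GC correction it was higher by 0.45 (limma adjusted p = 0.0169) and was again the 1 call, against 2.76% of all genes, 1.81% for higher. The diets lay further apart in TAC hearts (244.2 and 308.0 against 156.5 and 147.4) than in sham hearts (294.4 and 290.5 against 250.4 and 244.0). This mean thus draws on the low TAC SFA libraries of Dnajc28 described above. Its call on deposited values held without TAC SFA-EAA replicate 1 and was lost without any 1 of the other libraries (limma adjusted p = 0.0761 to 0.256). On GC-corrected values it held without TAC SFA replicate 1 or either TAC SFA-EAA library (limma adjusted p = 0.0076 to 0.112 over the 8 fits without 1 library). Without TAC SFA-EAA replicate 1, 19 of the 67 were called on deposited values, 28.4% against 18.5% of all genes, and 2 with the GC correction, 2.99% against 5.69%.

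The diet effect on Hspb1 turned on the GC correction. On deposited values it was -0.97 ± 0.26 in TAC hearts and -0.78 ± 0.26 in sham hearts (log2 fold change, SE; limma adjusted p = 0.159 and 0.269). After the correction it was -0.34 in TAC hearts (limma adjusted p = 0.118) and 0.10 in sham hearts (adjusted p = 0.783), so its sign in sham hearts turned. Hspb6 had -0.38 ± 0.14 in sham hearts as deposited and -0.11 after the correction (limma adjusted p = 0.281 and 0.76).

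Dnaja2, an Hsp70 partner of low GC content (42.6%), had 1478 and 1881 in TAC SFA-EAA hearts, against 1221 and 1230 in TAC SFA hearts, and 1841 and 1756 in sham SFA-EAA hearts, against 1335 and 1390 in sham SFA hearts. All SFA-EAA libraries lay above all SFA libraries. Its log2 fold change over both operations was 0.42 ± 0.09 as deposited and 0.22 with the GC correction (limma adjusted p = 0.0584 and 0.0896). Dnajc21, a factor of the large ribosomal subunit's maturation, had 179.6 and 221.6 in TAC SFA-EAA hearts, against 193.7 and 172.1 in TAC SFA hearts, and 230.8 and 226.2 in sham SFA-EAA hearts, against 156.4 and 148.4 in sham SFA hearts. The sham groups were apart, at 0.58 ± 0.15 (log2 fold change, SE; limma adjusted p = 0.267; 0.32 with the GC correction). Genes with all SFA-EAA libraries above all SFA libraries were Dnaja2, Hspb11 and Dnajb13, 4.48% against 5.41% of all genes, of which Dnajb13 is near 0 outside TAC SFA-EAA hearts and passed the filter only through them. Those with all below were Hsp90ab1 and Dnajc16, 2.99% against 4.92%. The GC-corrected counts were 4, these 3 and Dnajb5, 5.97% against 3.69%, and 1, Hsp90ab1, 1.49% against 2.58%.

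**Figure D4:**
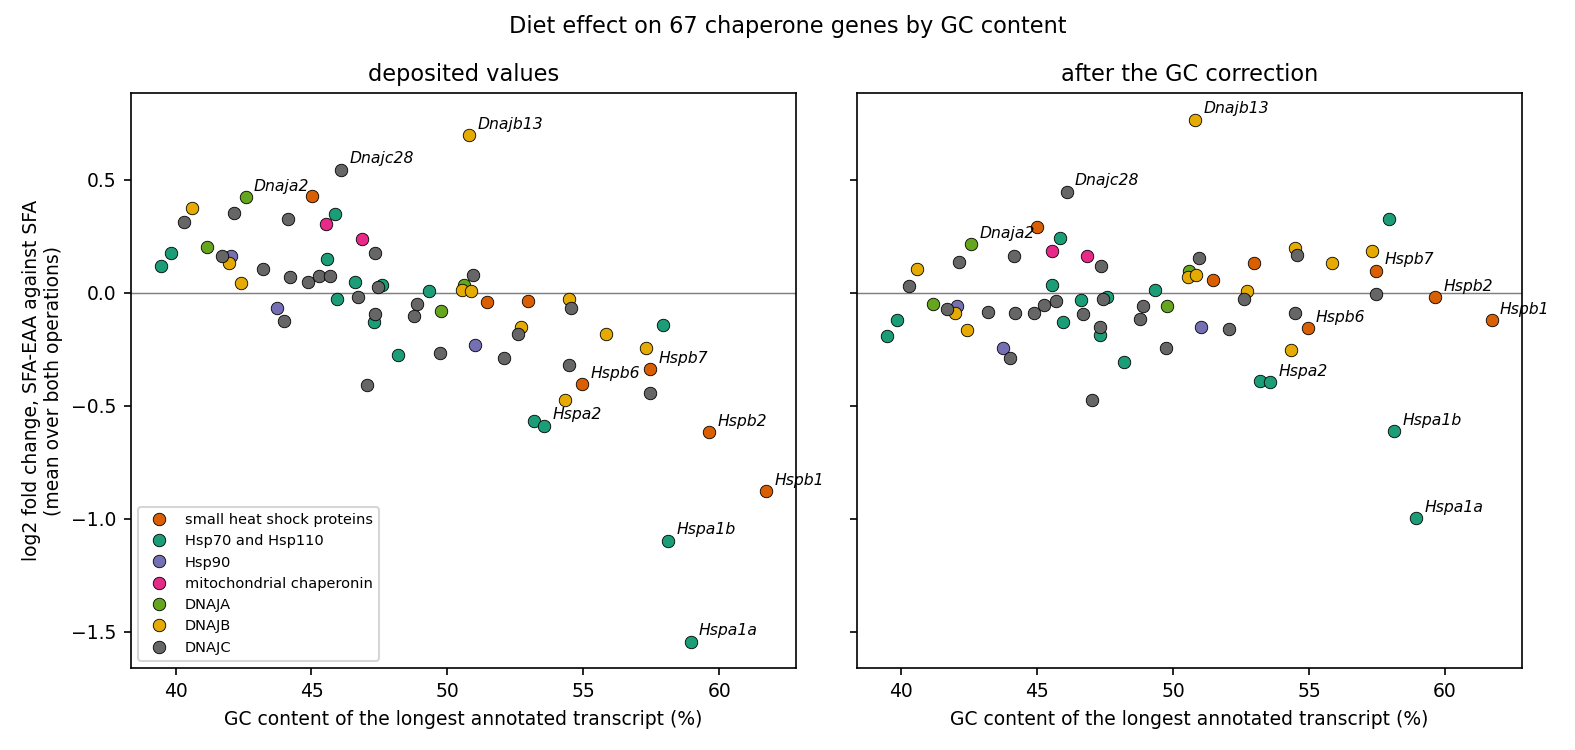
Log2 fold change of SFA-EAA against SFA over both operations (y axis) by the GC content of each gene's longest transcript (x axis, percent) for the 67 chaperone genes, on deposited values (left) and after the GC correction (right). The points slope down on the left, with a rho of -0.77, and have a rho of 0.01 on the right, where Dnajc28 keeps 0.45.

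Levels per length ranged from 0.10 to 5170 per kilobase. Over the 8 libraries the highest were Hspb7 with 5170, Hspb6 with 2497, Hsp90ab1 with 2279, Hspb8 with 1806, Hspa8 with 1674 and Hspa9 with 1337 per kilobase of exon. Next came Hspa5 with 831.2, Hspd1 with 795.1 and Hspb1 with 782.0, which overlap across libraries. Dnaja2, at 509.7, and Dnajc15, at 546.0, were the J-domain genes with the highest level, and the other DNAJC genes were at 104.5 or below. The lowest were Dnajb3, Dnajb13 and Dnajc6, at 0.60, 0.15 and 0.10. Hspb7 alone made up 21.7% of the summed signal of the 67 genes. Exon lengths are those of the deposited table, and 53 of the 67 equal the union of exons in GENCODE M21.

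**Figure D5:**
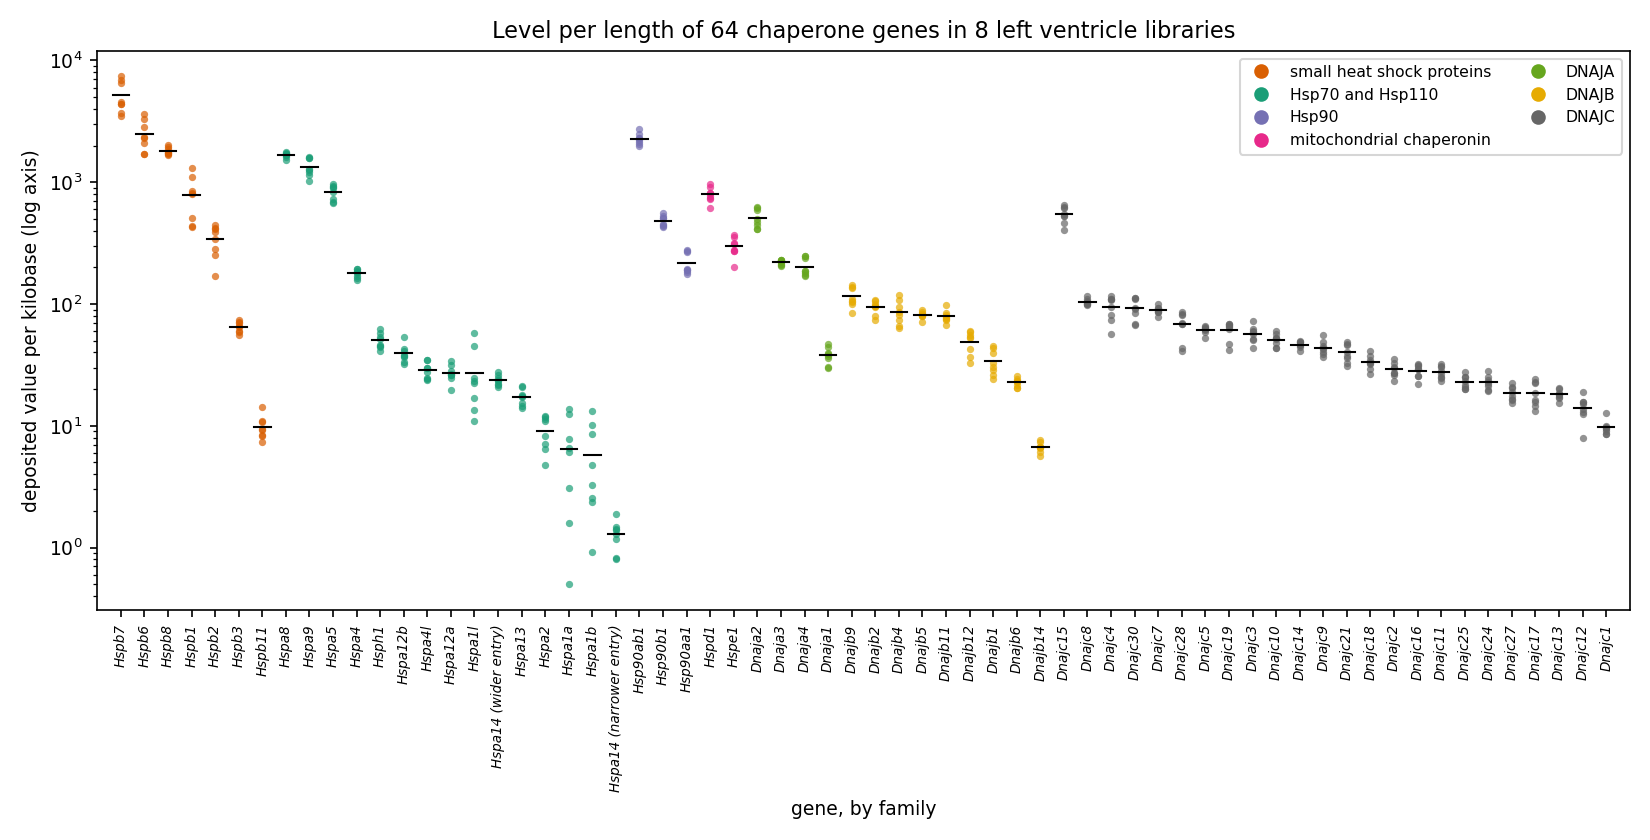
Deposited value per kilobase (y axis, log scale) of the 64 chaperone genes with a mean value of at least 5, by family; points are the 8 libraries and bars their mean. Hspb7, at 5170, leads, and Hspa1a and Hspa1b have the widest spread between libraries.

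Regulators and helpers of these chaperones were read from lists of genes outside the name rule. The heat shock factor list held Hsf1, Hsf2, Hsf4, Hsf5 and the binding protein genes Hsbp1 and Hsf2bp. Of these, 5 were tested, and limma called none in any of the 7 comparisons, on deposited or GC-corrected values. On deposited values at most 2 of the 5 had an unadjusted p under 0.05 in any comparison, with 1 in TAC against sham over both diets. Hsf1, the factor that drives the heat shock response, had 173.6 and 181.5 in TAC SFA hearts, against 152.2 and 161.5 in sham SFA hearts, and 162.0 and 113.3 in TAC SFA-EAA hearts, against 111.1 and 134.7 in sham SFA-EAA hearts (limma adjusted p = 0.781 and 0.877). Of 26 cochaperones, Fkbp5, an Hsp90 partner of the glucocorticoid receptor, was called higher in TAC SFA hearts. It had 635.4 and 324.0 there, against 165.3 and 107.5 in sham SFA hearts, a log2 fold change of 1.76 (limma adjusted p = 0.0414; lost without any 1 library, at 0.0631 to 0.413, while with the GC correction it was 1.74 at 0.00727 and lost only without sham SFA replicate 2, at 0.117), and 164.2 and 227.2 in TAC SFA-EAA hearts, against 317.2 and 252.5 in sham SFA-EAA hearts. Its relative Fkbp4 had 1576 and 1276 in TAC SFA hearts, against 2238 and 2295 in sham SFA hearts (-0.68, limma adjusted p = 0.0937, and 0.00586 with the GC correction). Bag3, the partner of Hspb8, had 1300 and 1564 in TAC SFA hearts, against 1247 and 1320 in sham SFA hearts (0.15, limma adjusted p = 0.72). The 14 genes of the cytosolic chaperonin TRiC and of prefoldin held no call by limma in TAC hearts under either diet, with 0 at an unadjusted p under 0.05 and log2 fold changes of -0.18 to 0.17 under SFA.

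The remaining genes, mostly DNAJC, gave no call on deposited values in any comparison. The DNAJC family summed to 4626 and 5025 in TAC SFA-EAA, 4631 and 4543 in TAC SFA, 4707 and 4590 in sham SFA-EAA and 4578 and 4462 in sham SFA hearts. Dnajc6, auxilin of clathrin uncoating, had a log2 fold change of 1.38 under SFA, chosen here after its values were seen. It had 0.94 and 2.48 in TAC SFA hearts and is listed at 0 in both sham SFA libraries. The 2 Hspa14 entries overlap over 8264 bases, and the wider one ranged from 85.2 to 111.5 and the other from 3.51 to 8.23, and how reads were divided between them was not tested.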

How the data were processed

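Stranded polyA RNA-seq of mouse left ventricle was grouped by operation and diet from the labels, with 2 libraries in each of 4 groups. Per the submitters' processing notes, the authors used STAR 2.5, the GRCm38 build and edgeR. The table was deposited as a normalized signal per gene, which is neither whole nor of 1 fixed total, so no count test was run and precision per library is known only from the spread. What counted the reads, on which annotation and with which strand setting is not given in the sources used here. Coordinates and lengths are those of the deposited table, in GRCm38, and upstream sequences are RefSeq's for GRCm38.p6.

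Limma-trend (limma 3.58.1, R 4.3.3) used log2(value + 1) of the 16432 genes that reached 1 in 2 or more libraries. All 4 groups entered 1 fit (4 residual degrees of freedom), so an arm left with 1 library is assumed to vary like the others. The scale damps the fold changes of low genes. P-values are two-sided and adjusted by Benjamini-Hochberg within each of 7 comparisons. For the GC correction, a loess curve of deviation on transcript GC content (span 0.3, genes with a mean of at least 20, GENCODE M21) was taken off each library. In sham hearts the GC trend and the diet cannot be told apart. Other settings were another pseudocount and filters, quantile scaling, library weights, a replicate block, fits to the compared libraries only, and leaving out each library; GC correction without each library was added after the data were seen. The model was tested on simulated data.

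The genes described, and the lists, were chosen with earlier results of these data known. Values in every library are given for genes called in any comparison, the 5 with the smallest p in each comparison of 2 groups, and a panel of main chaperones; others are given by range or count. The labels do not say that replicate numbers pair libraries. Python 3.11.15 with pandas 2.3.3, numpy 2.4.6, scipy 1.17.1, matplotlib 3.10.9 and Biopython 1.88 was used for the rest.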

Additional observations from a re-analysis of the deposited data

How the results depend on the processing

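Counts are of the 67 chaperone genes called by limma at an adjusted p of at most 0.05, and the percentages beside them are of all genes tested in the same fit. For TAC against sham under SFA, 1 was called on deposited values (1.25%), 0 with a pseudocount of 0.25 (0.913%), without a filter (0.958%) or with a replicate block (0.584%), 3 with a minimum value of 5 (2.47%), 9 with library weights (4.43%) or with only the 4 libraries compared (5.6%), 10 with the GC correction (5.0%) and 8 with that correction and the block (4.05%). Leaving out 1 library gave 0 to 5 (0.0% to 2.34%). For TAC against sham over both diets, 3 were called (2.11%), 0 without a filter (0.272%), 1 with the block (0.895%), 11 with the GC correction (6.2%) and 8 with both (4.89%), and 0 to 6 without 1 library (0.146% to 3.43%). For diet in TAC hearts, 0 were called (0.0487%), 1 with a minimum value of 5 (0.623%), with the GC correction (1.86%) and with that correction and the block (1.11%), and 0 to 12 without 1 library, 12 being without TAC SFA-EAA replicate 1 (8.49%). For diet in sham hearts, 0 were called (0.0%), 4 with library weights (3.6%), 8 with only the 4 libraries compared (6.45%) and 0 to 5 without 1 library (0.0% to 2.84%). For diet over both operations, 1 was called (1.21%), 0 with the smaller pseudocount (0.347%), without a filter (0.0%), with quantile scaling (0.256%) or with the block (0.0%), 4 with a minimum value of 5 (4.83%) or with library weights (4.1%), and 0 to 19 without 1 library, 19 being without TAC SFA-EAA replicate 1 (18.5%). TAC against sham under SFA-EAA stayed at 0 in each of these fits. The cause of these moves was not tested.

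With the GC correction and 1 library left out, the count under SFA was 7 without TAC SFA replicate 1 or either sham SFA-EAA library (3.35% to 4.15%), 11 without either TAC SFA-EAA library (6.29%) and 1 without TAC SFA replicate 2 or either sham SFA library. Over both diets it was 9 without TAC SFA replicate 1 or either TAC SFA-EAA library (5.08% to 7.12%), 6 without TAC SFA replicate 2, 5 without either sham SFA library and 4 without either sham SFA-EAA library. For diet, the GC-corrected call of Dnajc28 in TAC hearts was lost without TAC SFA replicate 2. Over both operations it was lost without TAC SFA replicate 2 or any 1 of the sham libraries. In these fits the median diet log2 fold change of the 67 in TAC hearts was -0.037 to 0.014, against 0.002 to 0.02 over all genes. Over both operations it was -0.047 to -0.026, against 0.006 to 0.015. The diet effect on Hspb1 in sham hearts was -0.78 on the log2 scale as deposited and 0.097 with the GC correction, with or without the replicate block. The difference between replicate 1 and replicate 2 of a group was correlated over genes with that difference in another group. These correlations were -0.27 to 0.04, so the numbers are not taken to pair the libraries.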
